A study of Mus musculus with 9 samples.

Results

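The ΔmiR-92 library, from embryos labelled as lacking miR-92 of the miR-17-92 cluster, was set against the wild-type library, from embryos with the full cluster. These are 2 of the 9 libraries of a small RNA sequencing series of an allelic series of this cluster. The other 6 genotypes, with 1 library each, served as the spread: deletion of miR-17 (ΔmiR-17), of miR-18 (ΔmiR-18), of miR-19 (ΔmiR-19), of miR-17 and miR-18 (ΔmiR-17,18), of miR-17, miR-18 and miR-92 (ΔmiR-17,18,92) and of the whole cluster (full deletion). The library of reads with no assigned genotype entered no comparison. All 8 genotype libraries were labelled female and came from mouse embryos at embryonic day 9.5, with heart and tail bud cut away and the rest taken up in Trizol. The sources used here give neither the zygosity nor the number of embryos behind a library. All 986 mature miRNA rows of the table were used, namely 2 arms of the deleted hairpin, 10 kept arms of the cluster, 1 additional row of miR-92a-3p and 973 rows outside the cluster.

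Each genotype had 1 library, so every ratio given here compares 2 libraries and not 2 conditions, without a replicate check, and 95% intervals cover counting error only. miRNA reads numbered 6564471 in ΔmiR-92 and 7070844 in wild type, the lowest counts of the 8 genotype libraries, which ranged up to 18481380. Levels are in nRPM, the authors' normalised reads rescaled in the same way in all libraries, where 1 read was worth 0.143 nRPM in ΔmiR-92 and 0.157 nRPM in wild type. Outside the cluster 319 miRNAs had a mean of at least 100 nRPM. ΔmiR-92 was the highest library for 44 of these and the lowest for 44, and wild type was the highest for 31 and the lowest for 44. The full deletion was highest for 60 and ΔmiR-17,18 lowest for 57, the largest such counts among the 8. In whole tissue, fewer cells of a type and less of a miRNA per cell cannot be told apart.

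A miRNA pairs with messenger RNAs mainly through its seed, bases 2 to 8, and lowers their translation and stability, so miRNAs with the same seed share many targets. The miR-17-92 cluster is a single primary transcript, from the host gene Mir17hg, that is cut into 6 hairpins of 4 seed families and is known for promoting proliferation and survival in embryonic tissues and tumours. From each hairpin 1 arm, the guide, is mostly loaded into Argonaute, while its partner arm is mostly degraded. miR-92a-1, the last hairpin of the cluster, has its guide on the 3p arm, and miR-92a is known for restraining blood vessel growth in adult tissue.

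The deleted hairpin and its X-linked copy are shown because they share the guide but not the partner arm. In both, capitals mark the 2 mature arms (RefSeq, GRCm38.p6). Mir92-1 lies at chr14:115044427-115044506 on the plus strand and Mir92-2, in the miR-106a cluster, at chrX:52741838-52741928 on the minus strand.
Mir92-1: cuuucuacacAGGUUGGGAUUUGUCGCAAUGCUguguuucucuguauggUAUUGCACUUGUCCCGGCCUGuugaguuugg
Mir92-2: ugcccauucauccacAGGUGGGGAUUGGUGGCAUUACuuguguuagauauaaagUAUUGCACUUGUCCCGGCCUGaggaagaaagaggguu
The mature miR-92a-3p of both hairpins is the same, so a read of it cannot be placed on either by its letters.

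The 6 mature miRNAs that RefSeq lists with the miR-92 seed are shown because they make up the pool that the deletion reduces. Capitals mark the seed, bases 2 to 8.
miR-92a-3p: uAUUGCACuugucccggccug
miR-92b-3p: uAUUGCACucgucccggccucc
miR-25-3p: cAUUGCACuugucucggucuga
miR-363-3p: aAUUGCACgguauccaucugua
miR-367-3p: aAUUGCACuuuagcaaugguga
miR-32-5p: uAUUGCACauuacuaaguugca
With positions counted from 1 at the 5′ end, miR-92b-3p differs from miR-92a-3p by U10C and G21C over the shared length, and miR-25-3p by U1C, C14U and C18U.

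The guides that ΔmiR-92 keeps are shown with the X-linked miR-18b-5p and miR-106a-5p, since they differ from one another by few bases. Capitals mark the seed.
miR-17-5p: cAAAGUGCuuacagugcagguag
miR-20a-5p: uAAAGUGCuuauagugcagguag
miR-106a-5p: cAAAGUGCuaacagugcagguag
miR-18a-5p: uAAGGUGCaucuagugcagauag
miR-18b-5p: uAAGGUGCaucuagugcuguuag
miR-19a-3p: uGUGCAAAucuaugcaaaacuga
miR-19b-3p: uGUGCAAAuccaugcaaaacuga
miR-20a-5p differs from miR-17-5p by C1U and C12U, miR-106a-5p from miR-17-5p by U10A, miR-18b-5p from miR-18a-5p by A18U and A20U, and miR-19a-3p from miR-19b-3p by C11U. The sources used here do not say how the authors counted reads that match more than 1 locus, so levels of such near-identical miRNAs are uncertain.

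The deleted arms came first, as the check of the genotype label. miR-92a-1-5p, the partner arm and unique to the deleted hairpin, had 0 reads in ΔmiR-92, against 1442 nRPM in wild type. With 0 reads, a level of up to 0.0298% of wild type (3 reads) would have been compatible with the count. It stood at 1.25 nRPM in ΔmiR-17,18,92 and 1.26 nRPM with the whole cluster deleted, and at 501.8 nRPM in ΔmiR-17,18, 1302 nRPM in ΔmiR-18, 1679 nRPM in ΔmiR-17 and 2097 nRPM in ΔmiR-19. The 3 libraries without miR-92 did not overlap with the 5 that kept it, a separation that the deletion itself fixes. The log2 difference was -9.53, with p = 0.0357 in an exact, two-sided permutation test, which can give no smaller value with 3 libraries against 5. The libraries are of different genotypes, so this p serves only as a check of the labels. ΔmiR-92 thus matched its label.

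The guide miR-92a-3p was listed in a higher and a lower row. The higher row stood at 871.5 nRPM in ΔmiR-92, against 199542 nRPM in wild type, a ratio of 0.00437 (0.00426 to 0.00448). The lower row stood at 14308 nRPM in ΔmiR-92, against 22952 nRPM in wild type, a ratio of 0.623 (0.618 to 0.628). The higher row was counted with the cluster after its values had been seen, so its low level is given as a description. In the other 2 libraries without miR-92 the lower row stood at 8491 and 9800 nRPM, and in the 4 other libraries that kept miR-92 it ranged between 10970.4 and 19242 nRPM.

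The pool of miRNAs with the miR-92 seed stood at 57423 nRPM in ΔmiR-92, against 276167 nRPM in wild type, and so at 20.8% of the wild-type pool (ratio 0.208, 0.207 to 0.209). As a share of all miRNA reads the pool made up 6.11% in ΔmiR-92 and 24.9% in wild type. The other 2 libraries without miR-92 held 55547 nRPM (ΔmiR-17,18,92) and 45173 nRPM (full deletion) of it. The 4 other libraries that kept miR-92 held between 114086 and 199867 nRPM, so all 3 libraries without miR-92 lay below all 5 with it, a separation that the deletion itself fixes. In ΔmiR-92 the pool consisted to 52.5% of miR-25-3p, to 24.9% of the lower row of miR-92a-3p and to 1.52% of its higher row, and in wild type to 15.4%, 8.31% and 72.3%.

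**Figure D1:**
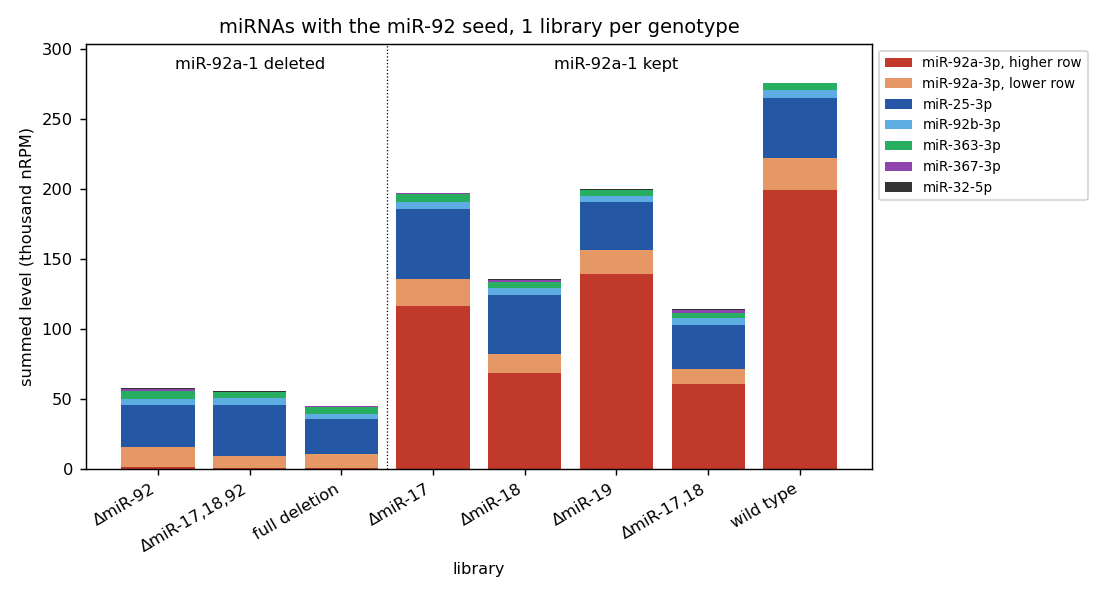
Summed level of the miRNAs with the miR-92 seed in each library, in units of 1000 nRPM, stacked by miRNA, with the 3 libraries without miR-92a-1 on the left and the 5 that kept it, wild type last, on the right. The sums are 57423 nRPM in ΔmiR-92 and 276167 nRPM in wild type, and most of the difference is the higher row of miR-92a-3p.

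The other members of this seed family were not higher as a group. Summed without either row of miR-92a-3p they stood at 42244 nRPM in ΔmiR-92 and 53673 nRPM in wild type, a ratio of 0.787 (0.783 to 0.791), inside the range of 34691 to 61988 nRPM of the other 6 libraries. miR-25-3p, from the miR-106b cluster in the Mcm7 gene, stood at 30153 nRPM in ΔmiR-92 and 42560.2 nRPM in wild type (ratio 0.708), with the other 6 libraries between 24804 and 50518 nRPM. miR-92b-3p, from its own hairpin on chromosome 3, stood at 4848 nRPM in ΔmiR-92 and 5966 nRPM in wild type (ratio 0.813). Wild type was the highest of the 8 libraries for miR-92b-3p, and ΔmiR-92 lay inside the range of the other 6, 3803 to 5049 nRPM.

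miR-363-3p, from the X-linked cluster, stood at 5187 nRPM in ΔmiR-92 and 4709 nRPM in wild type (ratio 1.10), and miR-32-5p at 164 nRPM in ΔmiR-92 and 152 nRPM in wild type (ratio 1.07). The exception was miR-367-3p, the last member of the miR-302 cluster that marks pluripotent cells. It stood at 1892 nRPM in ΔmiR-92, against 285 nRPM in wild type, a ratio of 6.63 (6.31 to 6.97) and the highest of all 319 miRNAs outside the cluster at this level. The other 6 libraries spread over the same range, with 162 nRPM in ΔmiR-19, 489 nRPM in ΔmiR-17, 500.0 nRPM in ΔmiR-17,18,92, 718 nRPM in the full deletion, 1583 nRPM in ΔmiR-18 and 2211 nRPM in ΔmiR-17,18. Neither library of the pair lay outside them.

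The kept guides of the cluster did not move as a group, while their partner arms stayed near wild type. Of the 5 kept guides, 3 were 2-fold or more higher in ΔmiR-92 than in wild type and 1 was 2-fold or more lower, against 0 of the 5 partner arms. The median log2 ratio was 1.07 over the guides and -0.01 over the partner arms, and the partner median turned to 0.23 with plain read totals and to 0.03 with totals outside the cluster. The counts of guides past 2-fold also depend on scaling. miR-19a-3p fell inside the limit with TMM (log2 0.98). miR-20a-5p did so with plain read totals (log2 -0.79) and with totals outside the cluster (log2 -0.98). Among the 319 miRNAs outside the cluster, 6.9% were 2-fold or more higher and 7.21% 2-fold or more lower. Summed, the 5 guides stood at 159110.3 nRPM in ΔmiR-92 and 95017 nRPM in wild type (ratio 1.67), and the 5 partner arms at 2543 nRPM in ΔmiR-92 and 2587 nRPM in wild type (ratio 0.983).

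miR-17-5p, the guide known for repressing cell-cycle brakes, was highest of all libraries in ΔmiR-92. It stood at 53719.8 nRPM in ΔmiR-92, 36341 nRPM in ΔmiR-18, 21450 nRPM in ΔmiR-19 and 17330.5 nRPM in wild type, the 4 libraries that keep it. The ratio of ΔmiR-92 to wild type was 3.10 (3.08 to 3.12), and wild type was the lowest of the 4. Its partner miR-17-3p stood at 1939.8 nRPM in ΔmiR-92, 2472 nRPM in ΔmiR-18, 2673 nRPM in ΔmiR-19 and 1954 nRPM in wild type, a ratio of ΔmiR-92 to wild type of 0.993 (0.969 to 1.02), which lies above 1 with plain read totals (log2 0.23) and with totals outside the cluster (log2 0.033).

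miR-20a-5p, which has the seed of miR-17-5p, went the other way. It stood at 15279 nRPM in ΔmiR-92, 21107 nRPM in ΔmiR-18, 13908 nRPM in ΔmiR-19 and 31072 nRPM in wild type. The ratio to wild type was 0.492 (0.488 to 0.495), ΔmiR-92 lay inside the other 2 libraries that keep it, and wild type lay above all 3. Together miR-17-5p and miR-20a-5p stood at 68998.5 nRPM in ΔmiR-92 and 48403 nRPM in wild type (ratio 1.43), above the 57449 nRPM of ΔmiR-18 and the 35357 nRPM of ΔmiR-19. Over all 6 guides with this seed, which include miR-93-5p, miR-106a-5p, miR-106b-5p and miR-20b-5p, the sum was 138988 nRPM in ΔmiR-92 and 107165 nRPM in wild type (ratio 1.30). Its partner miR-20a-3p stood at 219 nRPM in ΔmiR-92 and 228 nRPM in wild type (ratio 0.960).

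miR-18a-5p, the single guide of its seed in the cluster, was close to wild type. It stood at 10579 nRPM in ΔmiR-92, 3446 nRPM in ΔmiR-17, 12792 nRPM in ΔmiR-19 and 10099 nRPM in wild type, a ratio of 1.05 (1.04 to 1.06) that falls to just under 1 with TMM scaling (log2 -0.02). Its partner miR-18a-3p stood at 203 nRPM in ΔmiR-92 and 254 nRPM in wild type (ratio 0.798). The X-linked miR-18b-5p, with the same seed, was far lower, at 1096 nRPM in ΔmiR-92 and 6869 nRPM in wild type, a ratio of 0.160 (0.156 to 0.164). ΔmiR-92 was the lowest of the 8 libraries for miR-18b-5p, the other 6 of which ranged between 2018 nRPM in ΔmiR-17,18 and 11429 nRPM in the full deletion. The 2 together stood at 11675 nRPM in ΔmiR-92 and 16968 nRPM in wild type (ratio 0.688).

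The miR-19 guides, which share 1 seed, were both higher in ΔmiR-92 than in wild type. For miR-19b-3p ΔmiR-92 lay inside the other libraries that keep it, and for miR-19a-3p only ΔmiR-18 lay above ΔmiR-92. miR-19b-3p stood at 59391 nRPM in ΔmiR-92, against 26894 nRPM in wild type, a ratio of 2.21 (2.196 to 2.22). Among the other libraries with miR-19 it stood at 25168 nRPM in ΔmiR-17, 67216 nRPM in ΔmiR-17,18,92, 147990 nRPM in ΔmiR-17,18 and 155570 nRPM in ΔmiR-18. miR-19a-3p stood at 20142 nRPM in ΔmiR-92, against 9621 nRPM in wild type, a ratio of 2.09 (2.07 to 2.11).

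For miR-19a-3p the other 4 libraries held 3157 nRPM (ΔmiR-17,18,92), 3221 nRPM (ΔmiR-17), 16804 nRPM (ΔmiR-17,18) and 83046 nRPM (ΔmiR-18). The partner arms differed less between ΔmiR-92 and wild type, with miR-19b-1-5p at 124 nRPM in ΔmiR-92 and 95.4 nRPM in wild type (ratio 1.30) and miR-19a-5p at 57.8 nRPM in ΔmiR-92 and 56.4 nRPM in wild type (ratio 1.03). Both miR-19 guides summed to 79533 nRPM in ΔmiR-92 and 36515 nRPM in wild type (ratio 2.18, 2.17 to 2.19). All 12 arms of the cluster summed to 162525 nRPM in ΔmiR-92 and 298589 nRPM in wild type (ratio 0.544), or 17.3% of all miRNA reads in ΔmiR-92 and 26.96% in wild type.

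**Figure D2:**
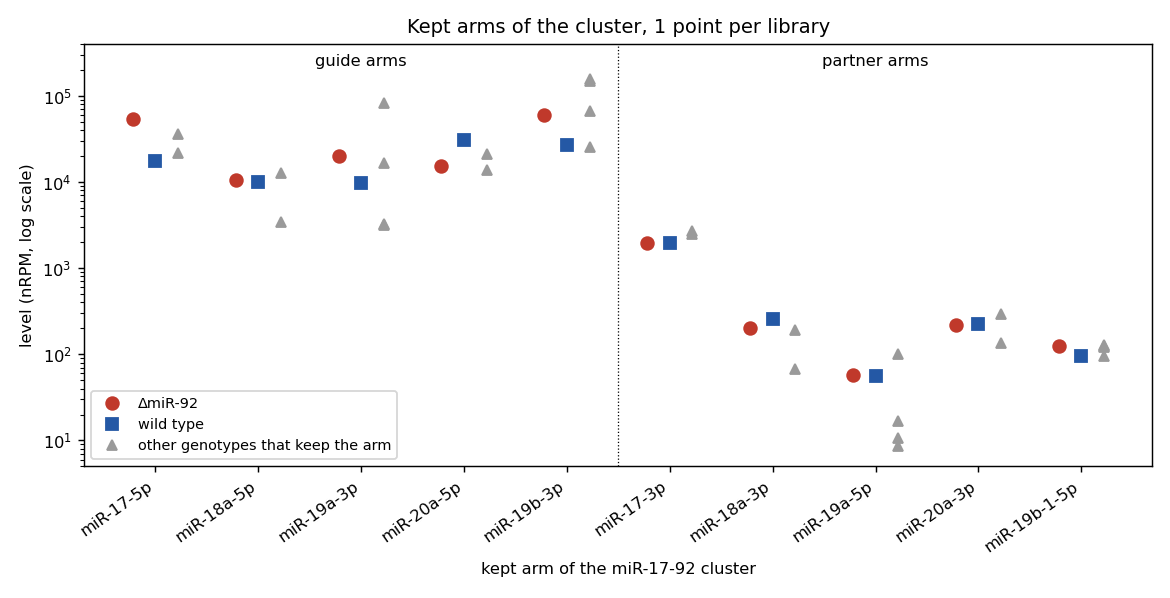
Level in nRPM (log scale) of the 5 guide arms and the 5 partner arms that ΔmiR-92 keeps, with 1 point per library: circles for ΔmiR-92, squares for wild type and triangles for the other genotypes that keep the arm. ΔmiR-92 lies above wild type for miR-17-5p, miR-19a-3p and miR-19b-3p and below it for miR-20a-5p, while the partner arms of the pair nearly coincide.

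The ratio of guide to partner within a library does not depend on scaling. Both arms come from 1 hairpin except for miR-19b, whose guide miR-19b-3p is also encoded by the X-linked Mir19b-2 and stood at 1541 nRPM in ΔmiR-19. For miR-17 the guide exceeded the partner 27.7-fold in ΔmiR-92 and 8.87-fold in wild type, with 14.7 in ΔmiR-18 and 8.03 in ΔmiR-19, so ΔmiR-92 lay above the other 3. For miR-20a the ratio was 69.9 in ΔmiR-92 and 137 in wild type, and for miR-19a it was 348 in ΔmiR-92 and 171 in wild type, and wild type was the lowest of 6 libraries for miR-19a. For miR-19b-1 it was 478 in ΔmiR-92 and 282 in wild type, and for miR-18a 52.2 in ΔmiR-92 and 39.8 in wild type. The other libraries that keep both arms ranged from 48.0 to 157 for miR-20a and from 190 to 1578 for miR-19a. They ranged from 263 to 1251 for miR-19b-1 and from 50.7 to 66.7 for miR-18a. ΔmiR-92 lay inside each of these ranges, and wild type lay below that of miR-18a. The log2 ratios of the 2 arms differed by 1 or more in 2 of these 5 hairpins, miR-17 and miR-19a. Outside the cluster they did so in 24 of the 74 hairpins with both arms at 100 nRPM or more (32.4%). The median difference was 0.97 in the cluster and 0.65 outside it. The 100 nRPM floor was not applied in the cluster. There miR-19a-5p averaged 31.3 nRPM, miR-19b-1-5p 85.9 nRPM and miR-18a-3p 89.9 nRPM. Some of the 74 have nearly the same ratios as one another, such as miR-136 and miR-3071, or miR-299 and miR-299b. The shares and medians of the 2 sets are therefore not like for like.

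The paralog clusters held close to their wild-type sums, which turned to above wild type with plain read totals. The 10 arms of the X-linked miR-106a cluster summed to 19826 nRPM in ΔmiR-92 and 21429 nRPM in wild type (ratio 0.925), inside the 17475 to 42001 nRPM of the other 6 libraries. Their members moved apart: besides the low miR-18b-5p, miR-106a-5p stood at 5999.8 nRPM in ΔmiR-92 and 2612 nRPM in wild type (ratio 2.30), where wild type was the lowest of the 8. miR-92a-2-5p, the partner arm of the intact X-linked copy of miR-92a, stood at 217 nRPM in ΔmiR-92 and 181 nRPM in wild type (ratio 1.20), the highest of the 8 libraries by a narrow margin over 206 nRPM. miR-363-5p stood at 1524.5 nRPM in ΔmiR-92 and 965 nRPM in wild type (ratio 1.58).

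The 6 arms of the miR-106b cluster summed to 89934 nRPM in ΔmiR-92 and 95176 nRPM in wild type (ratio 0.945), with the other 6 between 84186 and 137218 nRPM. Its guide miR-106b-5p, with the miR-17 seed, stood at 32116 nRPM in ΔmiR-92 and 16824 nRPM in wild type (log2 0.93, just inside the 2-fold limit). Its partner miR-106b-3p stood at 1211 nRPM in ΔmiR-92 and 2252 nRPM in wild type (ratio 0.538), the lowest of the 8. miR-93-5p stood at 26257 nRPM in ΔmiR-92 and 33347 nRPM in wild type (ratio 0.787).

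By the number of miRNAs past 2-fold outside the cluster, the pair was no further apart than many other pairs of libraries. Of the 319 miRNAs at this level, 22 were 2-fold or more higher in ΔmiR-92 than in wild type and 23 were 2-fold or more lower, with a median log2 ratio of 0.01 and an interquartile range from -0.46 to 0.40. With plain read totals, which move the median of all to 0.24, the split was 39 higher and 19 lower. The 45 miRNAs past 2-fold placed the pair 15th, with ties, of the 28 pairs of genotype libraries. The 15 pairs among the other 6 genotypes had between 31 and 74 such miRNAs, with a median of 45. ΔmiR-92 was nearest to ΔmiR-17,18, with 32, and farthest from ΔmiR-17, with 67. The standard deviation of log2 ratios was 0.806 for ΔmiR-92 and wild type, larger than for most other pairs, which ranged from 0.593 to 0.904.

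ΔmiR-92 lay above all 7 other libraries for 44 of the 319 miRNAs (13.8%) and below all 7 for 44 (13.8%). With TMM scaling these counts were 25 and 53, and with totals outside the cluster 59 and 32. Of the 22 that were 2-fold or more higher, ΔmiR-92 alone lay outside the range of the other 6 genotypes for 10, wild type alone for 6, both for 2 and neither for 4. Of the 23 that were 2-fold or more lower, the counts were 9 for ΔmiR-92 alone, 7 for wild type alone, 6 for both and 1 for neither.

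No miRNA outside the cluster passed the limma or the edgeR test, and 8 passed DESeq2. limma, with the 6 other genotypes giving the spread and each lone library assumed to vary like them, called 0 of 538 miRNAs averaging 10 nRPM or more at a Benjamini-Hochberg adjusted p of 0.05, with 32 at an unadjusted p under 0.05. The lowest limma adjusted p was 0.342, for miR-369-5p. edgeR's quasi-likelihood test, run on reads recovered from the values, called 0, with 25 at an unadjusted p under 0.05. DESeq2's Wald test called 8 of the 538 (1.49%), with 44 at an unadjusted p under 0.05, of which 1 was higher in ΔmiR-92 and 7 lower. The DESeq2 calls were miR-302c-3p (higher) and miR-101a-3p, miR-101c, miR-369-5p, miR-450a-5p, miR-3081-3p and both rows of miR-196a-5p (lower). They are not all separate signals, since miR-196a-5p counts with both rows and miR-101c matches part of miR-101a-3p. Set against all 7 other libraries in place of wild type, limma again called 0, with 28 at an unadjusted p under 0.05.

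Among the highest ratios outside the cluster, after miR-367-3p, stood miR-302c-3p, another member of the pluripotency-associated miR-302 cluster. It stood at 259 nRPM in ΔmiR-92, against 55.8 nRPM in wild type, a ratio of 4.65 (4.14 to 5.22, DESeq2 adjusted p = 0.0397, limma adjusted p = 0.374). The other 6 libraries held 185 to 388 nRPM, so the library outside the spread was wild type. miR-7a-5p, known from neuronal and endocrine cells, stood at 3267 nRPM in ΔmiR-92, against 868 nRPM in wild type (ratio 3.77), with the other 6 between 1523 and 5013 nRPM and wild type again the lowest of the 8.

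miR-337-5p of the Dlk1-Dio3 region stood at 759 nRPM in ΔmiR-92, against 219 nRPM in wild type (ratio 3.47, 3.27 to 3.68). Among the other 6 it fell into a low set of 183 to 224 nRPM (ΔmiR-17, ΔmiR-18 and ΔmiR-19) and a high set of 466 to 672 nRPM (ΔmiR-17,18, ΔmiR-17,18,92 and the full deletion). miR-3544-3p had nearly the same values, 758 nRPM in ΔmiR-92 and 219 nRPM in wild type, and its hairpin overlaps that of miR-337 on the other strand, so they cannot be told apart here. miR-539-3p, of the same region, stood at 120 nRPM in ΔmiR-92 and 31.3 nRPM in wild type (ratio 3.83), inside the 25.1 to 255 nRPM of the other 6.

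The liver miRNA miR-122-5p stood at 262 nRPM in ΔmiR-92 and 69.4 nRPM in wild type (ratio 3.77), with the other 6 between 71.0 and 271 nRPM and wild type just below them. Next came miR-467e-5p of the Sfmbt2 cluster (151 nRPM in ΔmiR-92, 54.8 nRPM in wild type), and miR-433-5p (359.6 nRPM in ΔmiR-92, 139.7 nRPM in wild type). miR-185-5p stood at 595 nRPM in ΔmiR-92 and 236 nRPM in wild type, and miR-136-3p at 583 nRPM in ΔmiR-92 and 233 nRPM in wild type. The ratios of these 4 lay between 2.502 and 2.76. For miR-433-5p ΔmiR-92 lay inside the 174 to 379 nRPM of the other 6, and wild type lay below them. For miR-467e-5p, miR-185-5p and miR-136-3p ΔmiR-92 was the highest library. miR-3071-5p, whose position overlaps miR-136-3p, had the same values as it. Farthest above its nearest other library was miR-434-3p of the Dlk1-Dio3 region, at 4315 nRPM in ΔmiR-92 and 1906 nRPM in wild type (ratio 2.26), while the other 6 held 1168 to 2018 nRPM. Also far above the other 7 were miR-192-5p, known from liver and gut (838 nRPM in ΔmiR-92, 506 nRPM in wild type), and miR-135a-2-3p (161 nRPM in ΔmiR-92, 72.0 nRPM in wild type).

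The lowest ratio was that of miR-450a-5p, from the X-linked cluster of miR-322 and miR-503 that is known for slowing the cell cycle. It stood at 141 nRPM in ΔmiR-92, against 1724 nRPM in wild type, a ratio of 0.0818 (0.0765 to 0.0873, DESeq2 adjusted p = 0.0224, limma adjusted p = 0.374). The other 6 ranged from 232 to 877 nRPM, so that ΔmiR-92 was below and wild type above all of them. miR-351-5p of the same cluster stood at 904 nRPM in ΔmiR-92 and 1929 nRPM in wild type (ratio 0.469), again with the other 6 between them. Also lower was miR-450b-5p, at 306 nRPM in ΔmiR-92, the lowest of the 8, and 489 nRPM in wild type (ratio 0.626). Of the more abundant members, miR-503-5p stood at 2614 nRPM in ΔmiR-92 and 2603 nRPM in wild type, and miR-322-5p at 1865 nRPM in ΔmiR-92 and 967 nRPM in wild type.

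miR-369-5p of the Dlk1-Dio3 region was the miRNA farthest below all other libraries. It stood at 23.9 nRPM in ΔmiR-92, against 266 nRPM in wild type (ratio 0.0898, 0.0761 to 0.105), and at 116 nRPM in ΔmiR-17,18, 186 nRPM in ΔmiR-17,18,92, 275 nRPM in ΔmiR-18, 299 nRPM in the full deletion, 310.0 nRPM in ΔmiR-19 and 339 nRPM in ΔmiR-17. Its DESeq2 adjusted p was 0.0023, and its limma adjusted p against all 7 other libraries was 0.0594. The other arm of the same hairpin, miR-369-3p, stood at 1092 nRPM in ΔmiR-92 and 1258 nRPM in wild type (ratio 0.868).

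Next were miR-196a-5p and miR-196b-5p, transcribed from within the Hox gene clusters and known for targeting Hox messages. They share the seed and differ by A12C. As the counting of reads that match more than 1 locus is unknown, their levels may not be independent. Both are shown because both were lower, though encoded on different chromosomes.
miR-196a-5p: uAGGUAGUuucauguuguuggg
miR-196b-5p: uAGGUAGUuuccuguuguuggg
miR-196a-5p, encoded on chromosomes 11 and 15, stood at 121 nRPM in ΔmiR-92, against 458 nRPM in wild type (ratio 0.264, 0.244 to 0.285). miR-196b-5p, on chromosome 6, stood at 183 nRPM in ΔmiR-92, against 556 nRPM in wild type (ratio 0.329, 0.309 to 0.351). The other 6 libraries held 367 to 595 nRPM of miR-196a-5p and 559 to 936 nRPM of miR-196b-5p, so ΔmiR-92 alone lay outside them for miR-196a-5p, while wild type also lay just under them for miR-196b-5p. The DESeq2 adjusted p was 0.0224 for miR-196a-5p and 0.0738 for miR-196b-5p, and the limma adjusted p 0.374 for both. The lower row of miR-196a-5p stood at 109 nRPM in ΔmiR-92 and 415 nRPM in wild type. The other Hox-cluster miRNAs stood close to wild type, with miR-10a-5p at 26987 nRPM in ΔmiR-92 and 28278 nRPM in wild type (ratio 0.954) and miR-10b-5p at 33942 nRPM in ΔmiR-92 and 35292 nRPM in wild type (ratio 0.962). The tail bud, where miR-196 genes are active, had been dissected off, and how much of it remained in each library was not tested.

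The miR-101 guides were also lower together, and are shown because they overlap in sequence.
miR-101a-3p: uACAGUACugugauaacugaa
miR-101b-3p: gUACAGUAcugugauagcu
miR-101c: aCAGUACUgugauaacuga
miR-101c matches bases 2 to 20 of miR-101a-3p, so a shorter read of miR-101a-3p could be counted for it. miR-101a-3p stood at 801 nRPM in ΔmiR-92, against 5172 nRPM in wild type (ratio 0.155, 0.151 to 0.159), with the other 6 between 1532 nRPM in ΔmiR-19 and 4024 nRPM in ΔmiR-17. miR-101c stood at 13.6 nRPM in ΔmiR-92 and 192 nRPM in wild type (ratio 0.0707), and miR-101b-3p at 8123 nRPM in ΔmiR-92 and 16167 nRPM in wild type (log2 -0.99). For miR-101a-3p and miR-101c ΔmiR-92 was below and wild type above all other 6, and DESeq2 gave them adjusted p of 0.0146 and 0.0052 (limma adjusted p = 0.342 for both).

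Of the remaining lowest ratios, miR-455-5p stood at 95.2 nRPM in ΔmiR-92 and 654 nRPM in wild type (ratio 0.146), and miR-361-3p at 71.1 nRPM in ΔmiR-92 and 327 nRPM in wild type (ratio 0.218). The other 6 held 84.2 to 633 nRPM of miR-455-5p and 70.4 to 202 nRPM of miR-361-3p. For both, ΔmiR-92 lay inside them and wild type was the highest of the 8. miR-199a-5p, a mesenchymal miRNA, stood at 627 nRPM in ΔmiR-92 and 2277 nRPM in wild type (ratio 0.275). ΔmiR-92 was the lowest of the 8 for miR-199a-5p and ΔmiR-17,18,92 the highest, at 6517 nRPM, while the other arm of the hairpins, miR-199a-3p, stood at 6807 nRPM in ΔmiR-92 and 6743 nRPM in wild type. miR-203-3p, known from skin, stood at 176 nRPM in ΔmiR-92 and 598 nRPM in wild type (ratio 0.295), with ΔmiR-17,18 lower still at 174 nRPM. miR-758-3p of the Dlk1-Dio3 region stood at 503 nRPM in ΔmiR-92 and 1601 nRPM in wild type (ratio 0.315). miR-3081-3p, the remaining DESeq2 call (adjusted p = 0.0146), stood at 23.8 nRPM in ΔmiR-92 and 132.5 nRPM in wild type, and the other 6 held 22.7 to 45.9 nRPM, so that wild type lay apart.

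**Figure D3:**
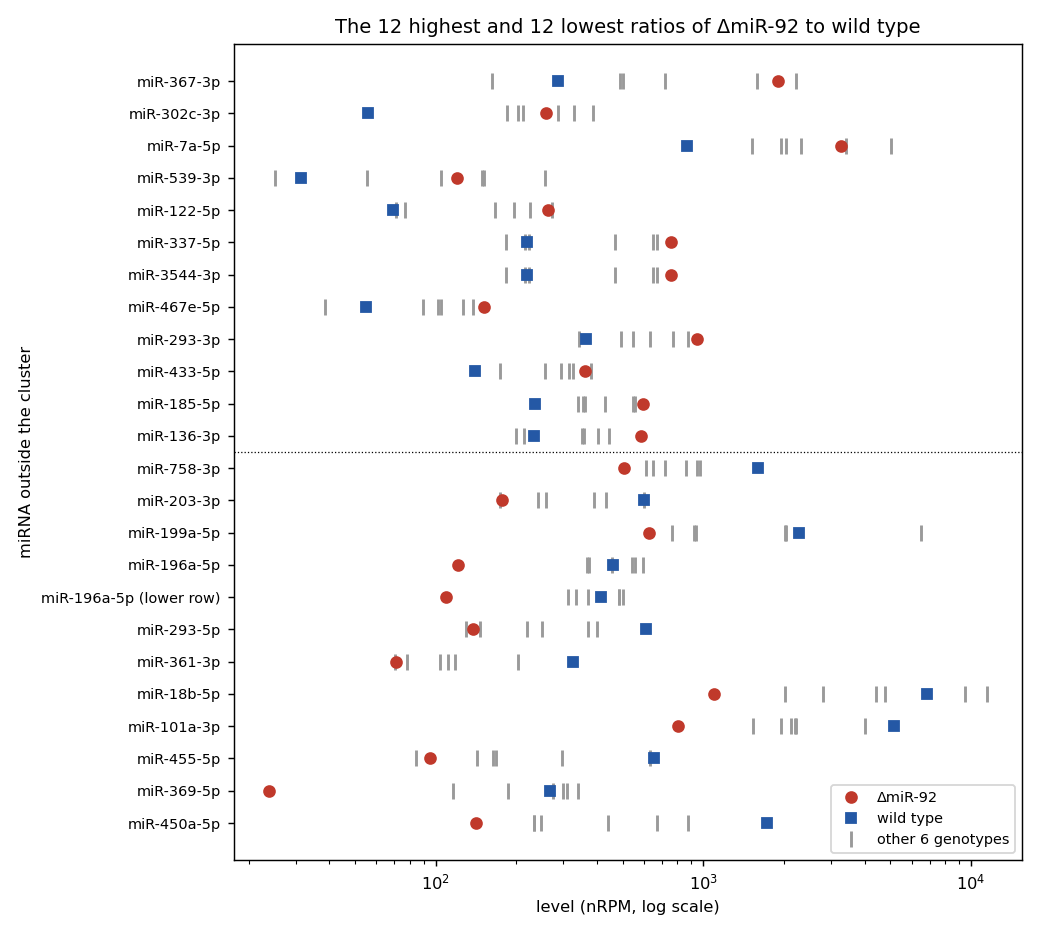
Level in nRPM (log scale) of the 12 miRNAs outside the cluster with the highest and the 12 with the lowest ratio of ΔmiR-92 to wild type: circles for ΔmiR-92, squares for wild type and ticks for each of the other 6 genotypes. For miR-302c-3p and miR-7a-5p it is wild type that lies outside the ticks, and for miR-369-5p and miR-196a-5p it is ΔmiR-92.

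Arms of 1 hairpin outside the cluster could also part. miR-293 of the embryonic stem cell cluster miR-290-295 was the widest case, with its 3p arm at 942 nRPM in ΔmiR-92 and 363 nRPM in wild type (ratio 2.59) and its 5p arm at 137 nRPM in ΔmiR-92 and 608 nRPM in wild type (ratio 0.226). ΔmiR-92 was the highest of the 8 on the 3p arm, and wild type the highest on the 5p arm. In the same cluster miR-291a-5p and miR-291b-5p, which share a seed, were both highest in ΔmiR-92. miR-291a-5p stood at 315 nRPM in ΔmiR-92 and 153 nRPM in wild type (ratio 2.05), and miR-291b-5p at 233 nRPM in ΔmiR-92 and 97.0 nRPM in wild type (ratio 2.40). The values just inside and outside the 2-fold limit were log2 1.03 for miR-291a-5p and 0.98 for miR-488-3p, and -1.09 for miR-351-5p and -0.99 for miR-101b-3p.

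The imprinted Dlk1-Dio3 region on chromosome 12, a large maternally expressed miRNA domain with roles in growth and placental development, held several of the named miRNAs. RefSeq places 103 of its arms (GRCm38.p6, starts from 109563744 to 109743764), 8 of them by the start of their hairpin for want of a mature entry, and arms with neither entry were not placed. Of the 103 arms 70 averaged 100 nRPM or more. Among these, 7 (10%) were 2-fold or more higher in ΔmiR-92 and 6 (8.57%) were 2-fold or more lower, near the 6.9% and 7.21% of all 319 miRNAs, with a range of log2 ratios from -3.42 to 1.90. The region as a whole stood at 165893 nRPM in ΔmiR-92 and 168716 nRPM in wild type, inside the 144299 to 185431 nRPM of the other 6.

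The widest gap between neighbouring arms, 90.8 kb, parts the region into 2 blocks, a split made after the values had been seen and not tested. The first 54.6 kb held 25 of the arms, of which 6 were 2-fold or more higher and 0 were 2-fold or more lower. These 6 are 4 separate signals, since miR-3544-3p shares the values of miR-337-5p and miR-3071-5p those of miR-136-3p within 1%. The last block, from 145 to 180.02 kb, held 45 arms, of which 1, miR-539-3p, was 2-fold or more higher and 6 were 2-fold or more lower. The first block summed to 70061 nRPM in ΔmiR-92, against 56540.0 nRPM in wild type (ratio 1.24). The other 6 held 50335 to 65467 nRPM, so ΔmiR-92 was the highest of the 8 with the authors' scaling. With TMM scaling the ratio was 1.17, and ΔmiR-92 and the full deletion were about level. The last block summed to 95832 nRPM in ΔmiR-92 and 112176 nRPM in wild type, inside the 78832 to 120961 nRPM of the other 6, a ratio of 0.854 that becomes 1.01 with plain read totals. For ΔmiR-17,18,92 over ΔmiR-17,18 the first block had 2 arms 2-fold or more higher and 1 lower, and the last block 6 higher and 0 lower.

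**Figure D4:**
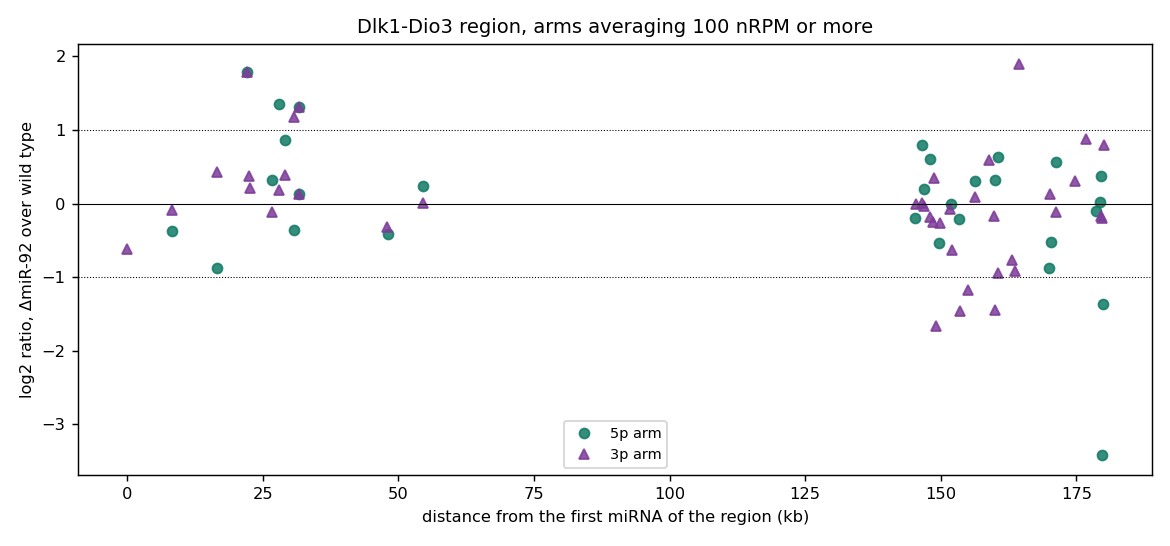
Log2 ratio of ΔmiR-92 over wild type for the 70 arms of the Dlk1-Dio3 region that averaged 100 nRPM or more, against their distance in kb from the first miRNA of the region, with circles for 5p and triangles for 3p arms and dotted lines at 2-fold. Of the 7 arms above the upper line, 6 (4 separate signals) lie within the first 54.6 kb and miR-539-3p lies in the last block, where the 6 arms below the lower line also lie.

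The ΔmiR-17,18 background gives the only other pair of libraries that differs by miR-92 alone, ΔmiR-17,18,92 over ΔmiR-17,18, and it shares no library with ΔmiR-92 and wild type. There, 27 of the 319 miRNAs outside the cluster were 2-fold or more higher and 13 were 2-fold or more lower. The log2 ratios of both pairs had the same sign for 118 miRNAs (37.0%). Across the 319 miRNAs, which are not independent and share the authors' scaling, Pearson's r was -0.40 and Spearman's rho -0.43. ΔmiR-17,18 and wild type were the farthest apart of all pairs, with 77 miRNAs past 2-fold, while ΔmiR-17,18 and ΔmiR-92 had 32. Such distances between libraries enter into r, which was not compared with that of other sets of libraries. Of the 22 miRNAs that were higher in ΔmiR-92 than in wild type, 7 had the same sign on the ΔmiR-17,18 background and 2 passed 2-fold the same way. These 2 were miR-136-3p and miR-3071-5p, which hold the same reads. Of the 23 that were lower, 4 had the same sign and 0 passed 2-fold the same way, while 6 passed it the other way.

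miR-367-3p went opposite ways, with a log2 ratio of 2.73 for ΔmiR-92 over wild type and -2.14 for ΔmiR-17,18,92 over ΔmiR-17,18. So did miR-18b-5p with -2.65 and 1.13, and miR-199a-5p with -1.86 and 2.81. miR-450a-5p, the lowest ratio against wild type, stood at 232 nRPM in ΔmiR-17,18,92 and 233 nRPM in ΔmiR-17,18. miR-369-5p, miR-101a-3p, miR-196a-5p and miR-196b-5p had log2 ratios of 0.68, 0.17, 0.56 and 0.33 there, each of the opposite sign to their ratio in ΔmiR-92 over wild type.

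**Figure D5:**
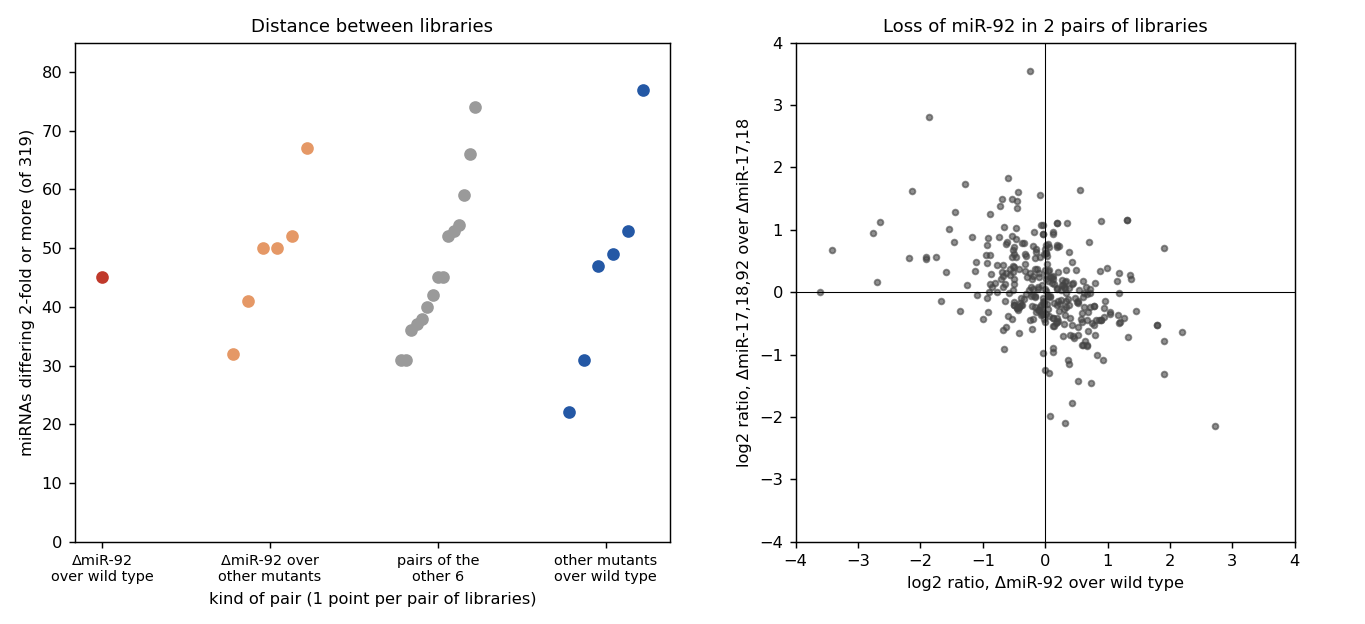
Left, the number of the 319 miRNAs outside the cluster that differ 2-fold or more within each of the 28 pairs of genotype libraries, by kind of pair; right, the log2 ratio of ΔmiR-17,18,92 over ΔmiR-17,18 against that of ΔmiR-92 over wild type, with 1 point per miRNA. ΔmiR-92 and wild type differ in 45 miRNAs, the median of the pairs among the other 6 genotypes, and the points on the right lie mostly in the quadrants of opposite sign.

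The listed miRNAs of cell types and pathways are read against the 6.9% higher and 7.21% lower of all 319 miRNAs, so a count of 0 in a short list says little of that list. All 6 let-7 members at 100 nRPM or more, known as regulators of developmental timing, stayed within 2-fold, with log2 ratios between -0.12 and 0.26. Of 7 miR-302 cluster members 2 were higher, those named above, while miR-302b-3p stood at 2291 nRPM in ΔmiR-92 and 2406 nRPM in wild type. None of 6 blood, 6 epithelial or 3 sensory miRNAs passed 2-fold. Blood miRNAs summed to 1804 nRPM in ΔmiR-92 and 2257.5 nRPM in wild type, and epithelial ones to 10417 nRPM in ΔmiR-92 and 11169 nRPM in wild type. The sensory miR-183 cluster summed to 13819 nRPM in ΔmiR-92 and 16745 nRPM in wild type. The endothelial miR-126-3p stood at 8393 nRPM in ΔmiR-92 and 8047 nRPM in wild type (ratio 1.04), and its other arm miR-126-5p at 4763 nRPM in ΔmiR-92, the highest of the 8, and 2673 nRPM in wild type (ratio 1.78).

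Of 5 neural miRNAs, miR-135b-5p was higher, at 1950.4 nRPM in ΔmiR-92 and 862 nRPM in wild type, and miR-9-5p, an early neural miRNA, was lower and the lowest of the 8, at 620.1 nRPM in ΔmiR-92 and 1806 nRPM in wild type. miR-124-3p of differentiated neurons stood at 1042.5 nRPM in ΔmiR-92 and 1167.5 nRPM in wild type. Of 8 mesenchymal miRNAs, miR-140-5p of cartilage was higher, at 317 nRPM in ΔmiR-92 and 139.6 nRPM in wild type, and miR-199a-5p and miR-199b-5p were lower. miR-143-3p stood at 12187 nRPM in ΔmiR-92 and 14371 nRPM in wild type.

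Muscle miRNAs summed to 5127 nRPM in ΔmiR-92 and 3026 nRPM in wild type (ratio 1.69), inside the 2175 to 5872 nRPM of the other 6, with 0 of 3 past 2-fold. The log2 ratios of these 3 lay between -0.15 and 0.90 with a median of -0.03, so the higher sum does not hold for each member. miR-208a-3p, miR-208b-3p and miR-499-5p, encoded in myosin genes and defining for the heart that had been dissected off, were all detected in both libraries. They summed to 99.5 nRPM in ΔmiR-92, 41.2 nRPM in wild type and 52.2 to 256 nRPM in the other 6, so wild type had the lowest sum. miR-208a-3p alone stood at 51.7 nRPM in ΔmiR-92 and 6.27 nRPM in wild type. The part of remaining heart tissue in the differences given above was not tested, and that of liver, marked by miR-122-5p, was not tested either.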

How the data were processed

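Small RNA libraries, 1 per genotype, were compared with genotypes taken from the labels. The submitters' processing notes list STAR 2.2.0, SAMtools 0.1.19 and featureCounts from Subread 1.4.2, and the build mm9. The sources used here do not say how multi-mapping reads were counted.

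The authors deposited a normalised signal per mature miRNA and library. All values (100%) were whole multiples of 1 read's worth within 0.001 reads, so reads could be recovered, and 0 columns were left unmatched to a sample. The deposited signal was multiplied by 0.1159 to give nRPM. The 1046 rows hold 977 accessions. Rows of 1 accession within 10% of each other were merged with the higher kept, which left 986 rows with 8 accessions in more than 1 row, among them miR-92a-3p and miR-196a-5p. Before taking log2, 1 nRPM was added as a pseudocount, so changes of low miRNAs are understated. Ratio intervals are exact conditional intervals on reads at 95%.

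The planned test named edgeR for counts. As the file holds normalised values, limma 3.58.1 (trend, 3 groups, 5 residual degrees of freedom) was the main test, and edgeR 4.0.16 (which called 0 outside the cluster) and DESeq2 1.42.0 (8) on recovered reads were alternatives. The tests were tested on simulated data. limma tested miRNAs averaging 10 nRPM or more, and fold counts used those averaging 100 nRPM or more. Cluster arms deleted in some of the 6 other genotypes were described without the limma test.

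Named were all cluster arms, the miR-92 seed family, the 12 highest and 12 lowest ratios with at least 20 reads in either library, the 5 farthest above and the 5 farthest below all other libraries, and members of 23 lists by cluster, seed and tissue. Members and lists were chosen with earlier results of these data known. Of the 986 rows, 773 matched a RefSeq mature sequence, and positions and sequences are those of RefSeq on GRCm38.p6, not of the build of the table.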

Additional observations from a re-analysis of the deposited data

Results flagged for a closer look

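miR-19a-3p stood at 83046 nRPM in ΔmiR-18, far from the other 5 libraries that keep it, ΔmiR-92 and wild type among them. Its gap to the next library passed a limit that about 1 in 20 groups of 6 normally distributed values would pass by chance. The limit was set on levels without taking logs, and other cluster arms were held against it too. This high value widens the spread against which miR-19a-3p of ΔmiR-92 was read.

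For 8 miRNAs that differed by 2-fold or more between ΔmiR-92 and wild type, ΔmiR-17,18,92 over ΔmiR-17,18 passed 2-fold in the opposite direction. With 1 library per genotype, these differences between the backgrounds were not tested. Lower in ΔmiR-92 than in wild type but higher in ΔmiR-17,18,92 than in ΔmiR-17,18 were miR-199a-5p (log2 2.81 there), miR-199b-5p (1.74), miR-293-5p (1.62), miR-376a-3p (1.29), miR-18b-5p (1.13) and miR-9-5p (1.02). Higher in ΔmiR-92 than in wild type but lower in ΔmiR-17,18,92 than in ΔmiR-17,18 were miR-367-3p (-2.14) and miR-7a-5p (-1.30).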

How the results depend on the processing

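No paired analysis was possible because each genotype had 1 library and the labels carry no replicate numbers. With plain read totals, totals outside the cluster and TMM, the median log2 ratio of the kept guides was 1.30, 1.11 and 0.98, that of the partner arms 0.23, 0.033 and -0.10, and the miR-92 seed family stood at 24.5%, 21.4% and 19.6% of wild type. It stood at 17.03% with the higher row of miR-92a-3p alone. Plain totals gave 39 miRNAs 2-fold or more higher outside the cluster. Means of 10 and 1000 nRPM or no filter gave 47, 4 and 129 higher and 44, 7 and 109 lower. TMM left 25 above all other libraries, against 44. DESeq2 called 8, while limma called 0 with each of the 6 other libraries left out, lowest and highest 0. Without 1 library at a time, the log2 difference of miR-92a-1-5p ranged from -9.87 to -9.14, and its exact permutation p from 0.0571 to 0.0952, since fewer libraries allow no smaller p. Of 264 log2 ratios of 44 named miRNAs under other scalings or pseudocounts, 0 reversed past the 2-fold limit and 5 crossed it. These 44 were the kept arms, the miR-92 seed family without miR-92a-3p and the miRNAs ranked highest, lowest or farthest. Those named only from the lists or near the limit were not counted. The 5 crossings were of miR-20a-5p, miR-19a-3p and miR-291a-5p. The share of same signs with the ΔmiR-17,18 background ranged from 31.6% to 46.1%, and the place of the pair by number past 2-fold from 10th to 17th of 28. Of 23 summed lists, 7 changed side of 1 with plain totals. With 1 library a side, a difference could be read only against the spread between genotypes.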

Other observations

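Further miRNA groups had between 0 and 3 members past 2-fold in either direction, against 6.9% higher and 7.21% lower among all 319 miRNAs, so these counts in short lists do not set a group apart. The 6 members of the X-linked miR-322 cluster at 100 nRPM or more had 0 higher and 2 lower past 2-fold, summing to 6656 nRPM in ΔmiR-92 and 8459 nRPM in wild type with the 2 less abundant members, below the 7671 to 10392 nRPM of the other 6 libraries. Of 5 imprinted miRNAs of the H19, Igf2 and Nespas loci, miR-298-5p was higher, at 583 nRPM in ΔmiR-92 and 282 nRPM in wild type, while miR-483-3p stood at 517 nRPM in ΔmiR-92 and 454 nRPM in wild type. None of 3 members of the miR-15 and miR-16 family, which slows the cell cycle, passed 2-fold, with miR-16-5p at 5311 nRPM in ΔmiR-92 and 3703 nRPM in wild type. None of 3 miRNAs of the p53 and hypoxia responses did, with miR-34a-5p at 99.6 nRPM in ΔmiR-92, the lowest of the 8, and 185 nRPM in wild type, and miR-210-3p at 2104 nRPM in ΔmiR-92 and 1934 nRPM in wild type. Of 3 Sfmbt2 miRNAs, miR-467e-5p was higher and miR-669c-5p lower, the second at 351 nRPM in ΔmiR-92 and 840 nRPM in wild type. In the list of 31 Dlk1-Dio3 miRNAs 3 were higher and 3 lower, and in that of 4 Hox-cluster miRNAs 0 were higher and 2 lower, with sums of 61232 nRPM in ΔmiR-92 and 64584 nRPM in wild type.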
